A study of Mus musculus with 6 samples.

Results

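The genes of the cytosolic ribosome's proteins were followed in the epididymal fat pad (white adipose tissue) of fasted mice by mRNA sequencing. Members were the protein-coding genes of the deposited table whose symbols begin with Rpl or Rps and a number, with Rplp0, Rplp1, Rplp2 and Rpsa. The kinases of the Rps6k family and pseudogene symbols were left out. This rule found 88 of the 45777 genes in the table. By symbol, 77 of them encode proteins of the standard ribosome, 46 in the large subunit (3 of these in its stalk) and 31 in the small subunit, and they are called core genes here. The other 11 were 8 paralogues, Rpl37rt and Rpl32l, which stood in no class, and Rps19bp1, whose product binds a ribosomal protein and is not one.

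The libraries labelled WT (n = 3) were from mice with floxed Pak4 alleles (Pak4 flox/flox). The libraries labelled KO (n = 3) were from mice with the same floxed alleles and Adipoq-Cre, which drives Cre recombinase in adipocytes, so Pak4 stays intact in the other cells of the pad. All animals had a C57BL/6 background and were fasted for 24 h, with no fed group; their age is not given in the labels. Replicates carry numbers in the labels, which do not state that they are different animals; every p-value therefore refers to the scatter among these 6 libraries, which may be technical.

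Each library held between 62854465 and 72005658 counts. Levels are given as CPM (reads per 1000000 in a library, corrected for composition by TMM) unless deposited TPM is named. Each fold change is a log2 ratio, KO label over WT label, ± SE. Pak4 itself went against the labels, at 5.53, 5.03 and 5.84 CPM under the WT label and 12.1, 10.7 and 9.06 CPM under the KO label (0.96 ± 0.14; edgeR's quasi-likelihood test gave a Benjamini-Hochberg adjusted p of 0.0898, DESeq2 1.67e-05). Directions are therefore given between labels, not genotypes. The labels name adipocytes as the cell type, and all 16 adipocyte markers were detected beside macrophage, endothelial and mesothelial markers, and the extraction protocol describes whole tissue. In such bulk tissue, fewer cells of a type and less RNA per cell cannot be told apart.

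A cytosolic ribosome joins a small subunit, which reads the mRNA, to a large subunit, which forms the peptide bond, and each ribosome carries nearly all of these proteins once. Their mRNAs are abundant and typically begin with a run of pyrimidines, the 5′ terminal oligopyrimidine (TOP) element, through which the kinase complex mTORC1 and the RNA-binding protein LARP1 govern their translation and stability. Fasting lowers mTORC1 activity, and the phosphorylation of the member Rps6 is a common readout of that pathway.

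The start-site sequences show how much of the TOP element can be seen from annotation. They are printed for the 3 members with the smallest p (Rps28, Rps21, Rps27), for 3 genes with long runs (Rpl27a, Rpl35, Rpl15), for the mTORC1 readout Rps6, and for members described below. Each is a 30-base window of RefSeq GRCm38.p6 (10 bases before the annotated start and 20 from it on), 5′ to 3′, with its longest pyrimidine run in capitals.
Rps28 (chr17:33824543-33824572, minus strand): cgcgtgcggTCTCgcgagagcgaaagtgag
Rps21 (chr2:180257369-180257398, plus strand): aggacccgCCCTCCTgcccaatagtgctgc
Rps27 (chr3:90213629-90213658, minus strand): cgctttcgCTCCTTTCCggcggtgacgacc
Rps6 (chr4:86857348-86857377, minus strand): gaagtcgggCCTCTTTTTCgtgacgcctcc
Rpl27a (chr7:109519185-109519214, plus strand): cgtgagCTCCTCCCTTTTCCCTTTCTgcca
Rpl35 (chr2:39005112-39005141, minus strand): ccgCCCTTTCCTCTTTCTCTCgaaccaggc
Rpl15 (chr14:18270967-18270996, minus strand): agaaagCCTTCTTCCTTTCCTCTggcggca
Rplp2 (chr7:141447641-141447670, plus strand): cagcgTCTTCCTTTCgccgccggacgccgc
Rplp0 (chr5:115559457-115559486, plus strand): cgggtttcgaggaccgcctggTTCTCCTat
Rpsa (chr9:120127756-120127785, plus strand): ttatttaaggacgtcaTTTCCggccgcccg
Rpl41 (chr10:128549149-128549178, minus strand): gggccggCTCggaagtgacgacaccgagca

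The runs reached 20 bases in Rpl27a, 18 in Rpl35 and 17 in Rpl15, while the longest in the printed window of Rpl41 was 3 bases. The search took any unbroken run of C and T of at least 8 bases, on the transcribed strand, within 20 bases before and 30 bases after an annotated start. Of the 77 core genes, 57 had a start in the table, with 67 windows. A run was found in 33 of those windows (49.3%), against 18.5% of 21229 windows of the other protein-coding genes. The same search for runs of A and G on that strand found 8.96% of core windows and 21.2% of the others. A run in this window is a description of letters and not a mapped transcript start.

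The ribosomal protein mRNAs as a whole took a larger share of the libraries labelled KO, by a small margin per gene, and no single member passed the test. Core genes took 2.40%, 2.32% and 2.203% of all counts in WT 1, 2 and 3, and 2.65%, 2.96% and 3.21% in KO 1, 2 and 3. The groups did not overlap, with means of 2.31% ± 0.101 and 2.94% ± 0.284 (SD, n = 3 each), a ratio of 1.27. Large subunit genes went from 1.39% ± 0.0561 to 1.76% ± 0.177 and small subunit genes from 0.923% ± 0.0453 to 1.18% ± 0.107. In the authors' TPM, which also divides by transcript length, core genes made up 5.97%, 5.71% and 5.599% of WT 1, 2 and 3 and 6.55%, 7.11% and 7.42% of KO 1, 2 and 3, again without overlap.

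**Figure D1:**
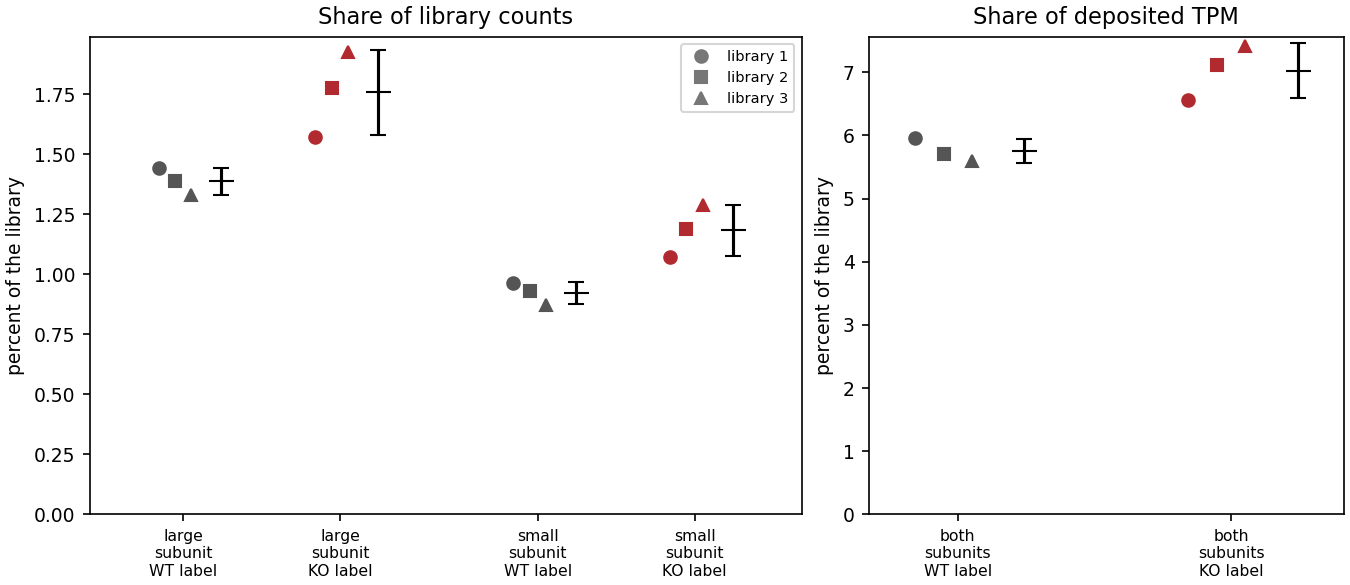
Share of each library (percent, axes from 0) on core genes, as counts for the large and small subunit (left) and as the authors' TPM for both (right). Points are the 3 libraries of each label and bars the mean ± SD; in each pair all 3 libraries labelled KO sit above all 3 labelled WT, with library KO 3 highest.

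These shares do not use a scaling factor, and with library size alone the median log2 fold change of all genes was itself 0.13. Leaving the mitochondrially encoded genes out of the total gave 2.49% ± 0.104 and 3.18% ± 0.341, and leaving out the 10 most abundant other genes gave 2.74% ± 0.114 and 3.48% ± 0.349. Mitochondrially encoded genes took 6.998% to 7.65% of counts under the WT label and 6.67% to 8.66% under the KO label, with the highest value in KO 3. After TMM scaling, core genes summed to 24084 ± 1313 CPM under the WT label and 28198 ± 2161 CPM under the KO label (SD, n = 3 each), also without overlap.

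With edgeR's quasi-likelihood test and a Benjamini-Hochberg adjusted p, 0 of the 84 members tested passed 0.05 in either direction, where 0.0168% of the 17820 genes tested did (3 genes, all lower under the KO label; 0% were higher). The other 4 members, Rpl10l, Rpl32l, Rpl39l and Rpl3l, were below the count filter, and all 77 core genes were tested. The lowest adjusted p of a member was 0.172, for Rps28. Without adjustment, 21 core genes had p under 0.05 with higher values under the KO label, against 9.66% of all genes, and 0 had it with lower values, against 9.71%. No member passed with DESeq2 either, where 6.88% of genes did and the lowest member value was 0.0616 for Rpl3, nor with limma voom (0.0281% of genes) or limma on the deposited TPM (0.0337%).

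All 77 core genes had a log2 fold change above 0, a sign shared by 52.1% of all genes tested. Their median was 0.24, against 0.02 over all genes, with a range from 0.03 in Rpl41 to 0.39 in Rpl3. The spread between genes (SD 0.0755) was smaller than the median SE of a single gene (0.116). In 41 core genes all 3 libraries labelled KO were above all 3 labelled WT, against 13.7% of all genes, and in 0 they were all below, against 12.5%. The core genes are measured in the same 6 libraries, so they are not separate replicates of this difference.

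**Figure D2:**
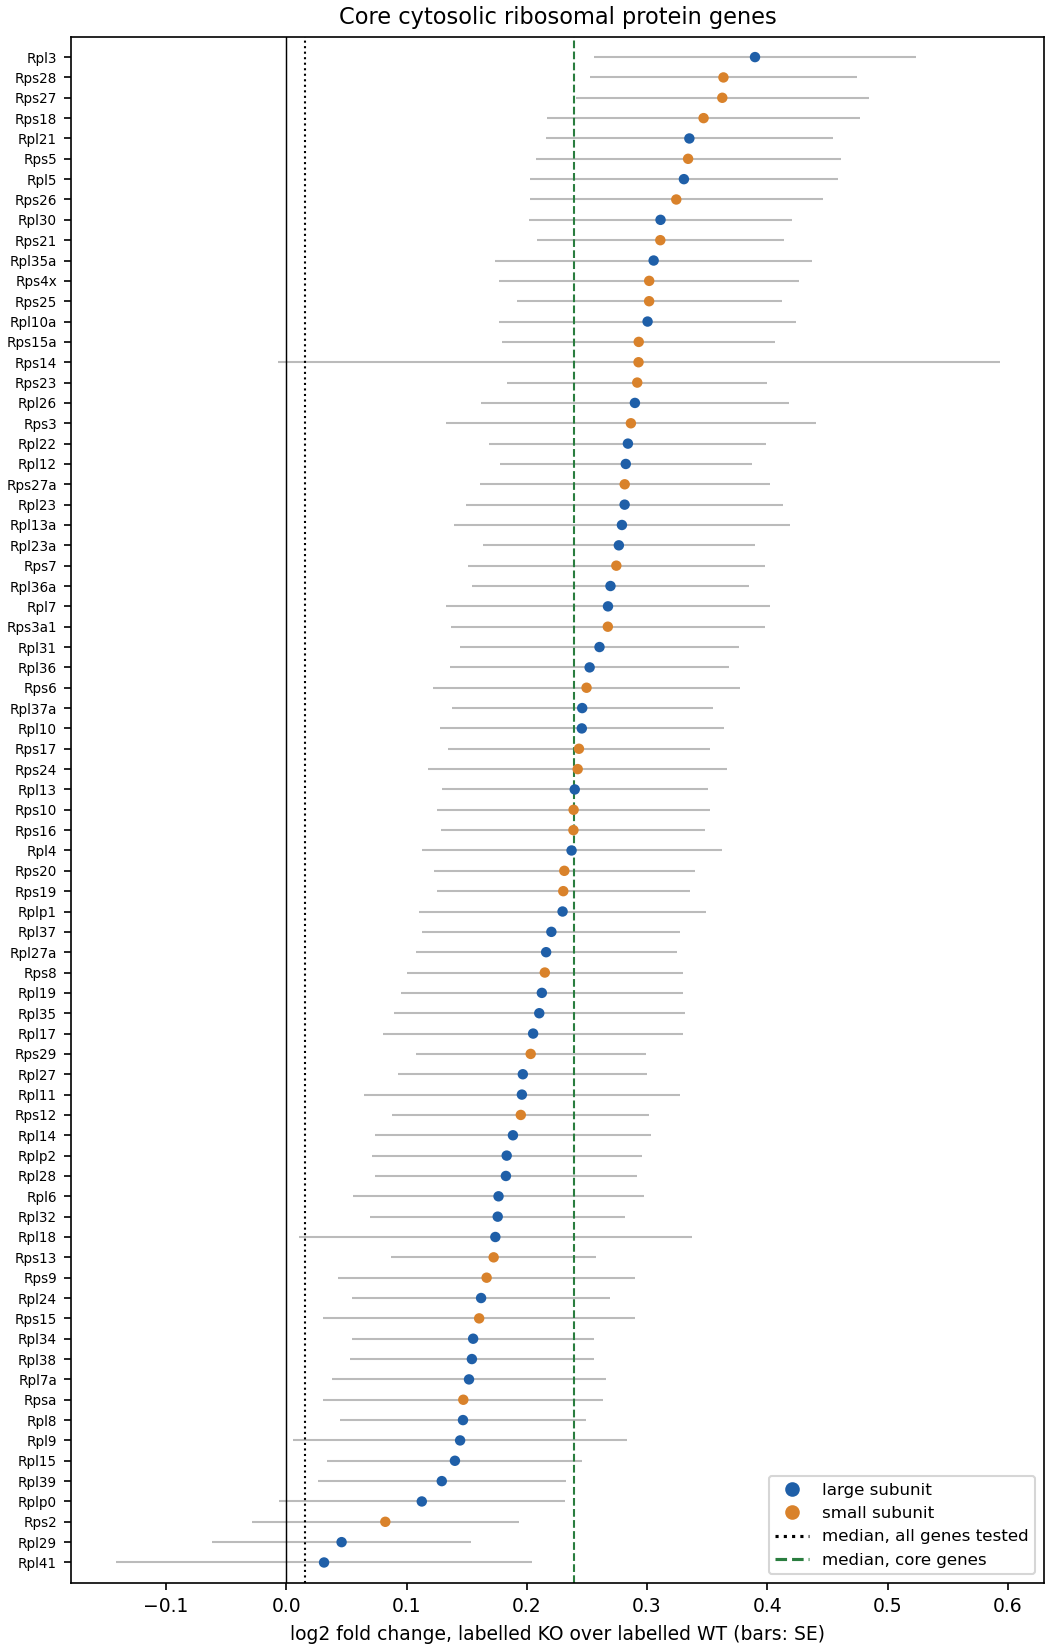
Log2 fold change of 75 core genes (x axis, libraries labelled KO over those labelled WT, bars ± SE), ordered from lowest to highest and coloured by subunit. All points lie right of 0, the dashed line marks the core median of 0.24 and the dotted line the median of all genes tested, 0.02.

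In the large subunit, 0 of 46 core genes passed and the median log2 fold change was 0.22. An unadjusted p under 0.05 came with higher values in 10, against 9.66% of all genes. In 20 all 3 libraries labelled KO were above all 3 labelled WT, against 13.7% of all genes. Rpl3, which lies next to the peptidyl transferase centre (chromosome 15, 80077781 to 80083406 in GRCm38), had 426, 431 and 422 CPM under the WT label and 475, 556 and 645 CPM under the KO label. Its 3 WT values lay close together and all 3 KO values were above them, with KO 3 highest. The fold change of Rpl3 was 0.39 ± 0.13, with an adjusted p of 0.196 in edgeR's test.

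Rpl30 had 173, 170 and 168 CPM against 185, 217 and 233 CPM (0.31 ± 0.11). Rpl21 had 354, 345 and 324 CPM against 377, 450 and 465 CPM (0.34 ± 0.12). In both genes the groups did not overlap and KO 1 lay nearest to the WT values; the adjusted p was 0.201 for Rpl30 and 0.203 for Rpl21 in edgeR's test.

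The stalk proteins Rplp0, Rplp1 and Rplp2 form the arm of the large subunit that recruits the elongation factors. Rplp0 had 772, 834 and 756 CPM under the WT label and 799, 828 and 927 CPM under the KO label (0.11 ± 0.12), and the groups overlapped. Rplp1 had 632, 578 and 532 CPM against 665, 648 and 729 CPM (0.23 ± 0.12), without overlap. Rplp2 had 309, 268 and 266 CPM against 343, 299 and 315 CPM (0.18 ± 0.11), with WT 1 above KO 2. Adjusted p-values of the 3 stalk genes in edgeR's test were 0.622, 0.321 and 0.39, so none stood apart from the spread between libraries.

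At the low end of the large subunit, Rpl41, the shortest ribosomal protein, had 635, 621 and 466 CPM under the WT label and 698, 509 and 553 CPM under the KO label. Its groups overlapped, and the fold change was 0.03 ± 0.17. Rpl29 had 215, 228 and 226 CPM against 204, 242 and 245 CPM (0.05 ± 0.11), with KO 1 the lowest of all 6 libraries. Both values took the other sign when single libraries were left out.

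In the small subunit, 0 of 31 core genes passed and the median log2 fold change was 0.25. An unadjusted p under 0.05 came with higher values in 11, against 9.66% of all genes. In 21 all 3 libraries labelled KO were above all 3 labelled WT, against 13.7% of all genes. Rps28 (chromosome 17, 33823036 to 33824562), a small protein near the mRNA exit channel, had 101, 97.4 and 88.6 CPM under the WT label and 108, 126 and 136 CPM under the KO label. All 3 KO values were higher, by 0.36 ± 0.11, with an adjusted p of 0.172 in edgeR's test. Without the library labelled KO 1 its fold change was 0.45 with an adjusted p of 0.0474, and it was the only member to pass in any alternative, in a fit that called 5.57% of all genes.

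Rps21 had 139, 123 and 131 CPM against 154, 154 and 179 CPM (0.31 ± 0.10). Rps27, a zinc-finger protein, had 206, 184 and 163 CPM against 229, 220 and 261 CPM (0.36 ± 0.12). Neither gene's groups overlapped, and KO 3 was highest in both; their adjusted p-values in edgeR's test were 0.191 and 0.192. Rps25 (0.30 ± 0.11), Rps23, which lines the decoding centre (0.29 ± 0.11), and Rps15a (0.29 ± 0.11) gave values of the same size, with adjusted p-values of 0.209, 0.212 and 0.223 in edgeR's test.

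Rps6, the substrate of the S6 kinases, had 361, 384 and 349 CPM under the WT label and 381, 423 and 497 CPM under the KO label. WT 2 lay above KO 1, and the fold change was 0.25 ± 0.13 with an adjusted p of 0.314 in edgeR's test. Rpsa, first described as a precursor of the laminin receptor, had 821, 829 and 788 CPM against 832, 897 and 971 CPM. Its KO 1 value was just above the highest WT value, and the fold change was 0.15 ± 0.12 (adjusted p 0.504 in the same edgeR test). Rps2 had the lowest fold change of the small subunit (0.08 ± 0.11), and its groups overlapped.

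Some ribosomal components have symbols outside the rule. Rack1, a scaffold protein on the head of the small subunit, had 413, 442 and 389 CPM against 461, 456 and 525 CPM (0.21 ± 0.11, adjusted p 0.333 in edgeR's test). Fau, which encodes a ribosomal protein fused to a ubiquitin-like protein, had 258, 244 and 233 CPM against 266, 283 and 334 CPM (0.27 ± 0.12). The groups overlapped in neither gene, and their adjusted p-values were above 0.05 in every alternative.

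The 2 subunits were compared within each library. There, the mean log2 CPM of large subunit genes minus that of small subunit genes was 0.01, 0.01 and 0.03 under the WT label and -0.02, -0.01 and -0.01 under the KO label. These groups did not overlap, and the KO mean minus the WT mean was -0.03 with a pooled SD between libraries of 0.00786, all on the log2 scale. The balance was thus lower for the large subunit under the KO label, by a small amount relative to the core median of 0.24. Summed counts of large over small subunit genes gave 1.49 to 1.52 under the WT label and 1.47 to 1.497 under the KO label, which overlapped. Summed TPM gave 1.44 to 1.47 and 1.41 to 1.43, which did not. The difference between the subunits' median fold changes was -0.03, and -0.01 in the deposited TPM.

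Levels can be compared between genes only per length, so the deposited TPM was used for this. Mean TPM over the 6 libraries ran from 71.7 in Rps15a to 2522 in Rplp1, with a core median of 775. Rplp1 (2269.7 ± 176 TPM under the WT label, n = 3), Rpl41 (2334 ± 319), Rps14 (1606 ± 424) and Rps12 (1363 ± 24.95) were the highest. Rplp1 and Rpl41 did not differ beyond their spread. Rps15a, Rps20 (140), Rpl22 (144) and Rpl15 (245) were the lowest; in Rps15a and Rps20 the ratio of TPM to CPM was 0.365 and 0.544, against a core median of 2.54, and that ratio is lower the longer the transcript the authors' TPM assumes.

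Library by library, the core genes differed within each label as well as between labels. KO 3 held the highest value of its group in 65 of 77 core genes and KO 1 the lowest in 58, while WT 3 held the lowest of its group in 69. The median deviation of core genes from the mean of the libraries labelled WT was 0.04, 0.03 and -0.07 on the log2 scale in WT 1, 2 and 3 and 0.10, 0.24 and 0.35 in KO 1, 2 and 3. Of the libraries labelled KO, KO 1 lay nearest to those labelled WT.

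**Figure D3:**
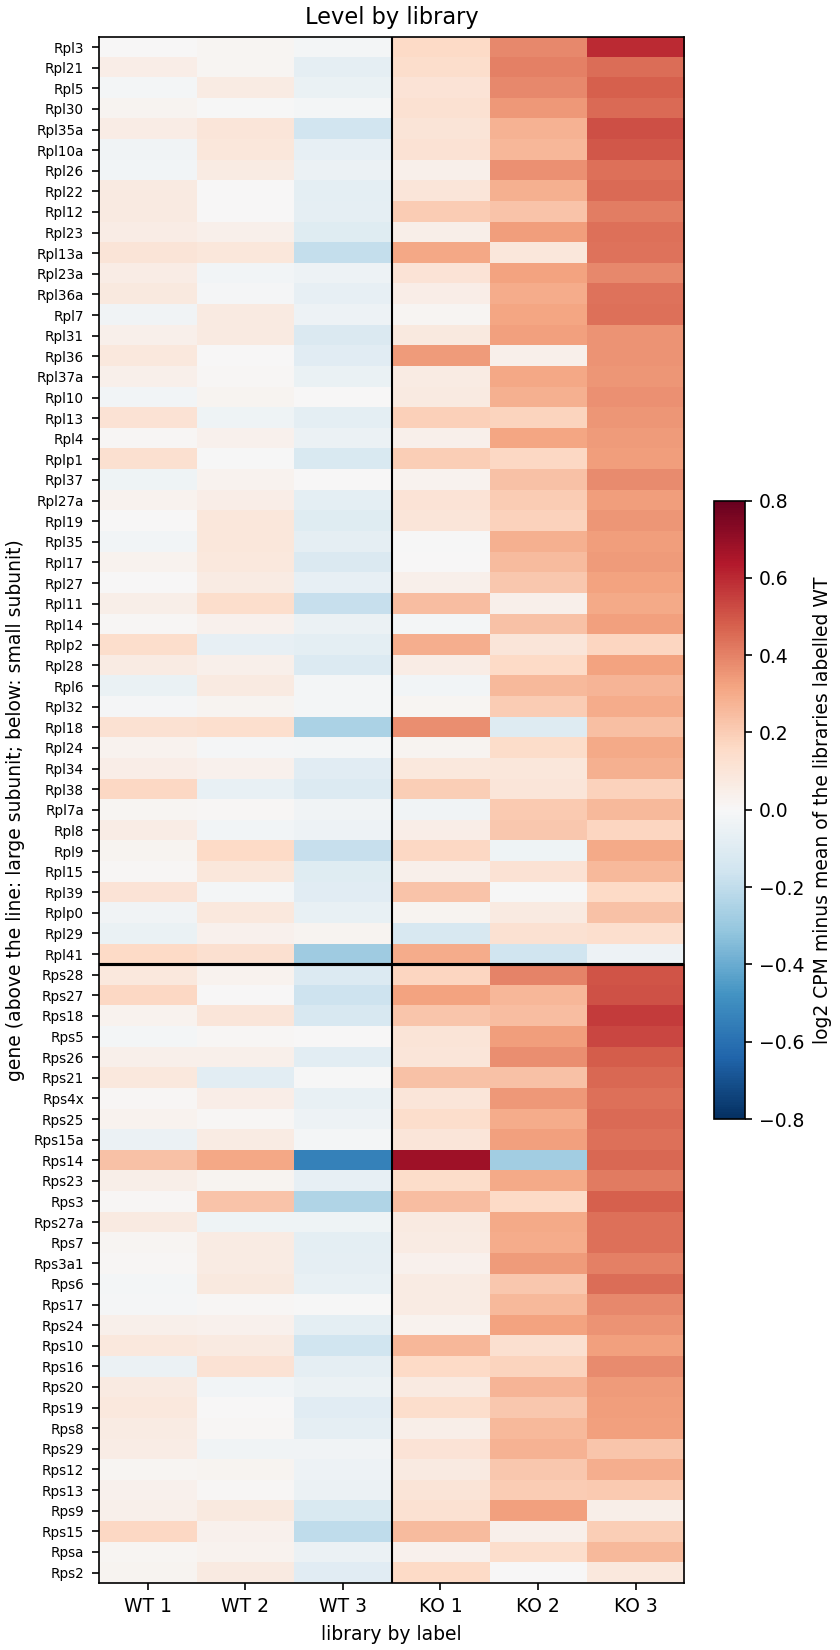
Log2 CPM of the same 75 core genes (y axis, large subunit above the line) in each library (x axis), minus the gene's mean over the libraries labelled WT; red is higher and blue lower. KO 3 is the deepest red in most genes, and Rps14 is low in WT 3 and KO 2.

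Within this common pattern, WT 3 and KO 2 were both low for a subset of members. Rps14, a protein of the small subunit's platform, had 599, 632 and 350 CPM under the WT label and 817, 421 and 700 CPM under the KO label. WT 3 and KO 2 were the low libraries of their groups by a wide margin, and the fold change was 0.29 ± 0.30, the largest SE of any core gene (adjusted p 0.612 in edgeR's test). Rpl18 had 326, 328 and 251 CPM against 388, 279 and 354 CPM, with the same 2 libraries low.

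Over the 77 core genes, the deviation of WT 3 from the other WT libraries and that of KO 2 from the other KO libraries had a Pearson r of 0.81 and a Spearman rho of 0.54. Without Rps14 these were 0.69 and 0.52, and over all 17820 genes -0.03 and -0.03. This was the strongest of the 9 pairs of a WT and a KO library over the core genes, which are linked because deviations within a label sum to 0; WT 3 with KO 1 had an r of -0.74, WT 1 with KO 1 0.68 and WT 1 with KO 2 -0.61. These genes share libraries and depth, so the correlations are a description. Rps14, Rpl41, Rpl18, Rps3, Rpl13a, Rpl9 and Rpl11 were more than 0.2 lower on the log2 scale in both libraries, 7 of 77 core genes (9.09%) against 5.36% of all genes and 4.27% of genes with at least 100 CPM. That limit and those 7 genes were chosen after their values were seen. Spearman rho between GC content of the transcript and the deviation was -0.30 in WT 3 and -0.37 in KO 2, and its part in the pattern was not tested.

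**Figure D4:**
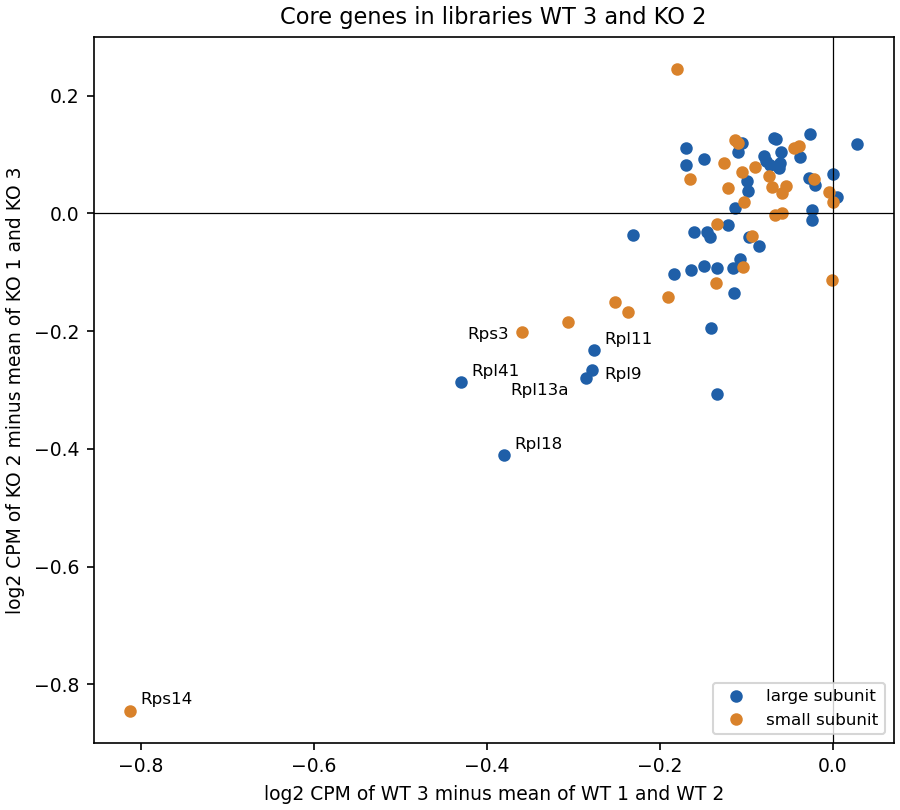
Deviation of library WT 3 from WT 1 and WT 2 (x axis, log2 CPM) against that of KO 2 from KO 1 and KO 3 (y axis, log2 CPM), 1 point per core gene, coloured by subunit. Most points lie within 0.2 of 0 on both axes, and the 7 labelled genes lie below -0.2 on both axes, Rps14 farthest.

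Among the paralogues, Rps27rt, a retrocopy of Rps27 on chromosome 9, had 4.42, 4.30 and 3.36 CPM under the WT label and 4.68, 5.63 and 7.26 CPM under the KO label. Its fold change of 0.54 ± 0.20 was the highest of all members (adjusted p 0.212 in edgeR's test), in the direction of Rps27. The coding sequences of both genes in the GENCODE M21 annotation of GRCm38 are the same 255 bases, so a read inside them fits either gene. The sequence is shown because it sets what can be told apart between them.
Rps27 and Rps27rt, coding sequence: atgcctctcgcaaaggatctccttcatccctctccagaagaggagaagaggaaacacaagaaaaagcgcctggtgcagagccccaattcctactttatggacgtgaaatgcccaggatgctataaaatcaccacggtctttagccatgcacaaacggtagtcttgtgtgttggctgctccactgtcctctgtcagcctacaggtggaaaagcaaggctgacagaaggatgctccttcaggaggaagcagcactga

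Rpl37rt had 2.15, 2.09 and 1.79 CPM against 2.47, 3.00 and 2.82 CPM (0.46 ± 0.18), also without overlap. The coding sequence of Rpl37rt was not compared with that of Rpl37. Paralogues tested other than Rps27rt have more divergent coding sequences than it has, and none of them passed. Rpl22l1, 66.9% identical to Rpl22, had a fold change of 0.19 ± 0.09. Rpl36al, 87.9% identical to Rpl36a, had 0.07 ± 0.09, and Rpl7l1, 51.7% identical to Rpl7, had 0.09 ± 0.08.

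Rps27l, which is 61.0% identical to Rps27 and is induced by p53, had 52.4, 58.1 and 54.7 CPM against 56.7, 50.9 and 51.6 CPM (-0.05 ± 0.09). Rps19bp1, a regulator of the deacetylase SIRT1, had 16.5, 13.2 and 14.8 CPM against 15.8, 11.5 and 12.9 CPM (-0.15 ± 0.14). These 2 were the tested members with a value below 0, and their groups overlapped. Rpl10l had no read in any library. Rpl3l, a form of striated muscle, had at most 4 counts in a library and Rpl39l at most 15.

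Core genes with a pyrimidine run at an annotated start (32) and core genes matched without one (25) each had a median log2 fold change of 0.24. All libraries labelled KO were above all labelled WT in 17 of 32 genes of the first set and 13 of 25 of the second, against 13.7% of all genes. The 20 core genes with no start in the table had a median of 0.25. Across the 77 core genes the fold change had a Spearman rho of -0.29 with GC content, -0.07 with transcript length and -0.17 with TPM; over 14408 genes tested the rho with GC content was -0.13.

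Other mRNAs with a TOP element had a median nearer to that of all genes. Of 21 such genes, 0 passed, 15 were above 0 and the median log2 fold change was 0.08. Tpt1, a highly expressed TOP mRNA, went from 1097 ± 43.8 to 1315 ± 129 CPM (0.26 ± 0.13), and Npm1, a nucleolar chaperone, from 178 ± 11.8 to 219 ± 34.8 CPM (0.30 ± 0.13). The elongation factor Eef2 was at 1824 ± 25.8 and 1828 ± 57.3 CPM (0.00 ± 0.12). Nap1l1, a histone chaperone, had 594, 691 and 655 CPM under the WT label and 627, 394 and 363 CPM under the KO label (-0.49 ± 0.21, adjusted p 0.26 in edgeR's test), so it was low in KO 2 and KO 3 and not in KO 1.

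Ribosome assembly genes had a similar median. Of 43 genes 0 passed in edgeR's test, 33 were above 0 and the median was 0.09. An unadjusted p under 0.05 came with higher values in 7, against 9.66% of all genes, and with lower values in 2, against 9.71%. Dkc1, the pseudouridine synthase of box H/ACA particles, had 19.9, 11.1 and 16.5 CPM against 21.4, 28.3 and 28.9 CPM (0.73 ± 0.22). It was the only 1 of the 43 to pass in DESeq2 (adjusted p 0.0323), which called 6.88% of all genes. Nop56 (0.41 ± 0.12) and Nop58 (0.29 ± 0.08), which are among the core proteins of box C/D particles, had an adjusted p of 0.169 each in edgeR's test. Of 15 RNA polymerase I genes 0 passed, with a median of 0.10.

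The regulators of mTORC1 and of TOP translation had a median below 0, with fold changes from -1.11 to 0.49. Of 29 genes 0 passed in edgeR's test, 10 were above 0 and 19 below, and the median was -0.14. An unadjusted p under 0.05 came with lower values in 8, against 9.71% of all genes, and with higher values in 1, against 9.66%. Ddit4, an inhibitor of mTORC1, had 74.2, 131 and 96.9 CPM under the WT label and 63.0, 52.4 and 50.5 CPM under the KO label (-0.87 ± 0.20; adjusted p 0.145 in edgeR's test and 0.00323 in DESeq2). Mtor, the kinase itself, had 85.7, 97.9 and 98.1 CPM against 80.8, 58.9 and 59.1 CPM (-0.50 ± 0.14; 0.161 in edgeR and 0.033 in DESeq2). Both were lower in all 3 libraries labelled KO, and Sesn2, a leucine sensor that restrains mTORC1, was the other gene to pass in DESeq2 (-0.88 ± 0.34, adjusted p 0.0493). DESeq2 thus called 3 of these 29 genes, against 6.88% of all genes. Sesn1, of the same family as Sesn2, was the 1 gene with an unadjusted p under 0.05 and a higher value (0.40 ± 0.16, adjusted p 0.233 in edgeR's test).

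Of 28 translation initiation factors 0 passed in edgeR's test, with a median of -0.07. The scaffold Eif4g1 had 556, 606 and 568 CPM against 483, 340 and 318 CPM (-0.60 ± 0.17), Eif4g3 had -0.37 ± 0.10 and Eif1a -0.32 ± 0.09, and these 3 passed in DESeq2 with adjusted p-values of 0.0161, 0.0275 and 0.0495. They were the only ones of the 28 to pass there, where 6.88% of all genes did. Proteins of the mitochondrial ribosome, a separate machine, had 31 of 78 genes above 0 and a median of -0.03. Mrps6 had 77.5, 98.3 and 72.8 CPM against 57.8, 46.8 and 39.9 CPM (-0.78 ± 0.17) and passed in DESeq2 (adjusted p 0.0018) but not in edgeR (0.131). It was the only 1 of these 78 genes to pass in DESeq2.

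No marker of another cell type passed in edgeR's test, and several lists leaned to 1 side. In DESeq2, which called 6.88% of all genes, 4 macrophage, 2 mesothelial and 2 fibroblast markers passed with higher values. With lower values, 5 endothelial and 4 smooth muscle markers passed there. B and plasma cells and neutrophils each had 1 marker pass in each direction, and skeletal muscle 1 with a higher value. Adipocyte markers had 2 higher and 1 lower, and T and NK and erythroid markers 0. All 17 macrophage markers were above 0, with a median of 0.31, and their summed level was 2270 to 2712 CPM under the WT label and 2449, 3209 and 3277 CPM in KO 1, 2 and 3. Of 11 mesothelial markers 10 were above 0 (median 0.54), with sums of 606 to 995 and 980 to 1216 CPM. Of 12 endothelial markers 10 were below 0 (median -0.41), with sums of 288 to 364 and 246 to 259 CPM. Of 10 smooth muscle and pericyte markers 8 were below 0 (median -0.45), with sums of 405 to 1792 and 264 to 541 CPM. Fibroblast and progenitor markers had 7 of 13 above 0 and a median of 0.04, and their sums were 4367 to 4671 CPM under the WT label and 4216, 5788 and 5953 CPM in KO 1, 2 and 3. The sums of the macrophage, mesothelial, smooth muscle and fibroblast lists overlapped between labels, as did those of T and NK cells, erythroid cells and skeletal muscle. Sums did not overlap for the endothelial list, for B and plasma cells (524 to 611 and 396 to 482 CPM) or for neutrophils (19.1 to 20.8 and 25.6 to 34.8 CPM). Sums hold only markers that passed the count filter, which were 6 of 12 for neutrophils and 4 of 8 for skeletal muscle. Of those 4 skeletal muscle markers 3 were above 0 and 1 below, at -2.41. Their sums were 82.1 to 584 CPM under the WT label and 13.4 to 155 CPM under the KO label. Of the 6 neutrophil markers 5 were above 0 and 1 below, and Ly6g had no read. Adipocyte markers summed to 77301 to 84213 and 77871 to 81597 CPM, with 12 of 16 below 0 and a median of -0.21. The epididymal markers Lcn5, Lcn8 and Defb41 had no read. Of the 9 markers of that list only 1, Rnase10, passed the count filter, and it reached at most 0.164 CPM. The part of cell composition in the ribosomal protein difference was not tested.

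Scaling moved the ribosomal protein values and all genes together. TMM factors were 0.931 to 0.976 under the WT label and 1.01 to 1.07 under the KO label. With library size alone the core median was 0.36 and the median of all genes 0.13, so the core genes stood 0.23 above all genes, against 0.22 with TMM, 0.22 with TMM computed without the members and 0.22 with upper quartile scaling. Across all 17 alternatives this distance ran from 0.17 without KO 3 to 0.28 without KO 1.

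**Figure D5:**
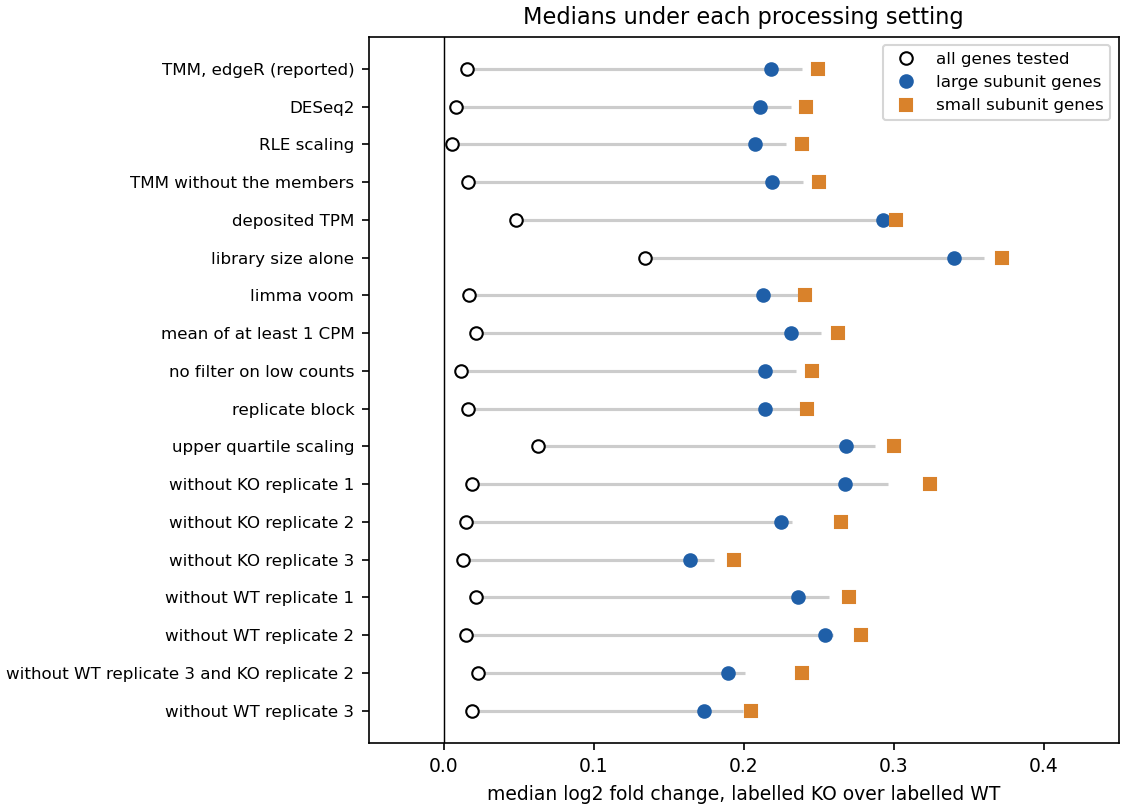
Median log2 fold change (x axis, libraries labelled KO over those labelled WT) under each processing setting (y axis) for all genes tested, large subunit and small subunit genes; the grey line joins the medians of all genes and all core genes. Library size alone shifts all 3 medians to the right, and leaving out KO 3 gives the lowest core median, 0.18.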

How the data were processed

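The authors deposited 1 table of 45777 genes with whole-number read counts per gene, which entered every count test. They also deposited FPKM, scaled per kilobase and per 1000000 fragments per the file headers, used here only to check the counts, and TPM, which sums to about 1000000 per library and was used for levels between genes and for 1 alternative. HISAT2 2.1.0, StringTie 2.1.3b, Bowtie2 2.3.4.1, FastQC 0.11.7, bcl2fastq 2.20.0 and build mm10 are listed, without roles, per the submitters' processing notes. The use of strand in counting, and how reads that fit several places were handled, are not given in the sources used here. Members that share sequence with pseudogenes or retrocopies are therefore uncertain.

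Genes passing filterByExpr (minimum count 10, minimum total 15) were scaled by TMM and fitted by label in edgeR 4.0.16 (R 4.3.3), a robust two-sided quasi-likelihood test over the whole table with a threshold of 0.05. SEs follow from the F statistic. DESeq2 1.42.0, limma 3.58.1 (on log2 of TPM + 1), other scalings and filters, a replicate block and leaving libraries out were alternatives. The biological coefficient of variation was 0.200, and no 2 libraries agreed within sampling noise. Exact permutation of 3 against 3 libraries cannot go below a p of 0.1, so none was run. The fits were tested on simulated counts, where the estimates had to lie near the true fold changes. Recovery of changed genes was required only at the largest simulated fold, well above those of the core genes. That requirement was loosened after DESeq2 had missed it, and the reason for the missed genes was not checked.

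The members, gene lists and tests were chosen with earlier results of these data known. Named are fixed roles (Rpl3, stalk genes, Rpsa, Rps6, Rack1, Fau), the core genes with the smallest p or extreme fold changes or TPM, all tested non-core members, and the genes of each pathway list with the smallest p; Tpt1, Eef2, Sesn1, Sesn2, Rpl18 and the 6 other genes low in WT 3 and KO 2 were added after their values were seen. Lists are described by counts and medians. A few genes that the rule names are counted but not reported here.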

Additional observations from a re-analysis of the deposited data

Results flagged for a closer look

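Pseudogenes that carry ribosomal protein symbols lie outside the members, and they took reads with the same order between labels. The table holds 217 of them, and their counts made up 0.0341% ± 0.00150 of the libraries labelled WT and 0.0434% ± 0.00412 of those labelled KO (SD, n = 3 each), without overlap. That is 1.48% of the core genes' counts under both labels. Of 106 pseudogenes tested, 0 passed in edgeR's test or in DESeq2, 98 were above 0 and the median log2 fold change was 0.27. In 35 all 3 libraries labelled KO were above all 3 labelled WT, against 13.7% of all genes. Rps4l, listed as a pseudogene, went the other way, with 1289, 1755 and 1440 counts under the WT label and 1356, 1247 and 1099 under the KO label (-0.42 ± 0.14, adjusted p 0.191 in edgeR's test). Whether these are reads of the pseudogenes or of their parent genes was not tested.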

How the results depend on the processing

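Among the named genes' values recomputed under all alternatives, 828 kept their direction and side of the threshold, 16 came past it (DESeq2 or without KO 1) and 6 took the other sign without passing. With library size alone the median log2 fold change was 0.36 over core genes, 0.34 for the large and 0.37 for the small subunit, each shifted with all genes. The core share differed by 1.27 percentage points in the deposited TPM against 0.631 in counts. The large minus small difference was -0.00896 in the deposited TPM and -0.05 without WT 3 and KO 2, an alternative chosen after seeing the data.

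Leaving out each replicate in turn gave 0 to 1 members past the threshold, large minus small differences of -0.057 to -0.024, and core medians of 0.18 to 0.30. Rpl41 then ran from -0.11 to 0.12 and Rpl29 from -0.000667 to 0.13. Rpl41 was -0.000338 without WT 3 and KO 2. Rps27l was 0.012 in the deposited TPM and 0.065 with library size alone.

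Over all 17820 genes, same-numbered libraries deviated with correlations of -0.17, -0.02 and 0.05, and over the core genes with 0.68, -0.49 and 0.09. Not every pair was above 0.1, so the numbers were not taken to pair the samples. With the replicate block 0 members passed and the core median was 0.24, with a lowest member adjusted p of 0.317 in edgeR. With 3 libraries per label, no core gene's difference exceeded the scatter enough to pass (median SE 0.116), and the cause of the order among the libraries labelled KO was not tested.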

Other observations

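The core genes lie on 19 chromosomes, with 14 on chromosome 7, 7 on chromosome 11 and 6 each on chromosomes 9 and 17. Rpl5 and Rpl11, which with the 5S rRNA bind the p53 regulator Mdm2, differed in the overlap of their groups. Rpl5 had 411, 435 and 401 CPM under the WT label and 447, 541 and 579 CPM under the KO label (0.33 ± 0.13), without overlap. Rpl11 had 455, 486 and 388 CPM against 524, 455 and 543 CPM (0.20 ± 0.13), with KO 2 level with WT 1. Both genes were named after their values were seen.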
